A study of Homo sapiens with 10 samples.

Results

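Translation initiation factors are the proteins that bring the small ribosomal subunit, the initiator transfer RNA and a messenger RNA together at a start codon. The genes described here are those with at least 1 protein-coding transcript whose symbol starts with EIF and a digit, which gave 56 of the 19655 protein-coding genes in the tables, and the estimated counts of all transcripts of a gene were summed. Caco-2 cells derive from a human colon carcinoma and resemble absorptive enterocytes once confluent. The cells came from a monoclonal Caco-2 line that carried dCas9-KRAB, a Cas9 that does not cut DNA joined to a repressor domain, and were given a lentiviral guide RNA against the long noncoding RNA LHFPL3-AS2 (g1 or g2) or the same plasmid without a guide (gCtl). dCas9-KRAB and antibiotic selection were thus shared by the 3 groups, and 5 libraries were labelled gCtl, 3 g1 and 2 g2. The comparison asks what differs when the guides are present, and the 5 libraries of g1 and g2 are called the libraries labelled knockdown.

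QuantSeq, the method used, reads a message from its polyadenylated 3′ end. The 10 libraries held 3838803 to 8730468 estimated counts, and the 56 genes together took 0.744% to 0.963% of them. LHFPL3-AS2 itself was not lower in the labelled libraries, at 2.03 to 6.01 RPM (counts scaled to a common library total) against 0.841 to 3.73 RPM in gCtl, so directions below refer to labels. These values rest on 4.39 to 44.0 estimated counts per library. By qPCR, the study reported less LHFPL3-AS2 with both guides than in gCtl. Of the 56 genes, 53 passed a minimum of 3 RPM in at least 20% of the libraries and were tested, among 11640 protein-coding genes that passed. EIF4E1B, EIF4E3 and EIF1AY, the Y-linked partner of EIF1AX, did not pass. EIF2S3L passed through the gCtl libraries alone. All 7 intestinal epithelial markers looked at were detected and passed the minimum, among them EPCAM and VIL1, while 4 of 6 markers of other cells (PTPRC, CD3E, CD68 and COL1A2) did not. The endothelial marker PECAM1 and the fibroblast marker COL1A1 passed, and PECAM1 was called higher with g1 (log2 fold change 1.29) at 4.06 to 9.90 RPM against 2.15 to 3.37 RPM in gCtl. The 6 markers summed to 5.82 to 13.9 RPM in gCtl and 7.46 to 22.2 RPM in the labelled libraries. With g2 KRT20, a keratin of differentiated enterocytes, was higher (log2 fold change 1.91) and KRT18 lower (-0.78). The part of these markers in the results below was not tested. In bulk RNA, fewer cells of a type and less RNA per cell cannot be told apart.

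Initiation runs through a series of complexes. eIF2, with the subunits EIF2S1, EIF2S2 and EIF2S3, binds GTP and carries the initiator transfer RNA, and eIF2B reloads eIF2 with GTP, a step that stops when one of 4 stress kinases phosphorylates eIF2. eIF3 is the large scaffold on the small ribosomal subunit, eIF4F recognises the cap and unwinds the leader of the messenger RNA, and the eIF4E binding proteins hold the cap binding protein away from it. eIF5A acts mainly in elongation despite its name, and eIF6 keeps the large ribosomal subunit from joining too early.

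Each of 3 of these genes has a near-identical copy elsewhere in the genome, and the sequences below are shown because the copies decide how reads can be assigned. Each is a stretch of 90 bases of coding sequence in the transcript orientation, from the GENCODE v29 transcripts (GRCh38), with the bases that differ between the members of a pair in capitals. EIF2S3 (ENSG00000130741.10) lies on chrX:24054716-24077971 on the plus strand and EIF2S3L, named EIF2S3B in the reference, on chr12:10505602-10523135 on the plus strand. The stretch is chrX:24057639-24057728 in EIF2S3 and chr12:10506170-10506259 in EIF2S3L, each within a single exon.
EIF2S3: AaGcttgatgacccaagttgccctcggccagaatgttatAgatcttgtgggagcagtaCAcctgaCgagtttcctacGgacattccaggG
EIF2S3L: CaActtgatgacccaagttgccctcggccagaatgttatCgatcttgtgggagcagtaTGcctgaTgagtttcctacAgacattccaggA

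These 90 bases differ at 8 positions and were chosen as the ungapped coding stretch of that length with the most differences. Over the 1601 aligned bases of the main transcripts of EIF2S3 and EIF2S3L 97.94% were identical, and 25 of the 33 mismatches lay in the 1416 aligned coding bases. Of the 31-base words in the transcripts of EIF2S3L, 63.48% occurred in no other gene, and of those of EIF2S3 70.19%. The main EIF2S3 transcript had 2858 bases, of which the aligned region ended at base 1849, and every 31-base word of its last 300 bases was found in no other gene.

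EIF5A on chr17:7306999-7312463 and EIF5AL1 on chr10:79512601-79516440, both on the plus strand, were 98.13% identical over 1125 aligned bases, of which 483 were coding with 5 mismatches. The stretch shown, chosen in the same way, is chr17:7309679-7309768 in EIF5A and chr10:79512693-79512782 in EIF5AL1, and it holds 3 of the differences.
EIF5A: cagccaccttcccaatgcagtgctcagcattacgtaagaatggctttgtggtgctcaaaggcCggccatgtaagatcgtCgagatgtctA
EIF5AL1: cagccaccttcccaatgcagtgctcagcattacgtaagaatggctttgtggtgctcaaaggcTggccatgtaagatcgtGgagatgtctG

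EIF3C on chr16:28688558-28735730, plus strand, and EIF3CL on chr16:28379579-28403879, minus strand, had no mismatch over 3044 aligned bases, with 7 further bases in gaps. The first 90 coding bases, chr16:28711687-28711776 in EIF3C, therefore stand for both genes. Only 1.523% of the 31-base words of EIF3CL occurred in no other gene, against 51.63% for EIF3C, whose 14 transcripts include shorter ones and ones with a retained intron.
EIF3C and EIF3CL: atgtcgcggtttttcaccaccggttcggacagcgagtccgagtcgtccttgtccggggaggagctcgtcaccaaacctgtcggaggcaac

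Across the family few genes moved in the libraries labelled knockdown. A gene was called when its adjusted p in edgeR's quasi-likelihood test (Benjamini-Hochberg over the 11640 genes) was at most 0.05 and its fold change at least 1.5. Of the 53 tested, 4 were called lower (7.55%), which were EIF2S3L, EIF5A, EIF2B5 and EIF4EBP3, where 11.0% of all genes tested were called lower. Without EIF2S3L, which passed the minimum through gCtl alone, 3 of 52 were called lower (5.77%). EIF3CL alone was called higher (1.89%), where the background was 8.14%. The median log2 fold change of the 53 was -0.04 and that of all genes tested 0.02, and 47 of the 53 fitted values lay within 1.5-fold. In 8 of the 53 (15.1%) the 5 gCtl and the 5 labelled libraries did not overlap in CPM (RPM after TMM scaling), close to the 15.5% of all genes tested. The count of 5 called genes became 3 of 50 when each pair of copies was added together before the fit. Over all genes it went from 2232 to 2230.

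With g1, 4 of the 53 were called lower (EIF2S3L, EIF5A, EIF3G and EIF4H), where 9.94% of all genes tested were, and EIF3CL was higher, where 6.81% of all genes were. With g2, 9 were called lower (17.0%) against a background of 13.0%, which were EIF2AK1, EIF2B5, EIF2S3, EIF2S3L, EIF3C, EIF3K, EIF4EBP3, EIF5A and EIF6. EIF3E alone was called higher with g2, against a background of 10.7%. EIF2S3L and EIF5A were called with both guides, which were compared with the same 5 gCtl libraries. Without EIF2S3L the lower calls were 3 of 52 with g1 and 8 of 52 with g2. Leaving out g2 replicate 2 gave 5 calls with g2, and over all genes the count went from 2757 to 1497.

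Between the guides 6 of the 53 were called. EIF3K and EIF6 were lower with g2 than with g1, 3.77% of the members where 3.42% of all genes tested were. EIF3E, EIF3M, EIF4EBP2 and EIF4H were higher, 7.55% where 1.56% of all genes were. Scaled by library totals alone, which moved the median of all genes by over 0.1 between g2 and g1, 4 were lower and 3 higher. Of all genes, 630 were then called lower and 125 higher. No member was called in glmTreat, a test against a fold of 1.5, in which 6 of the 53 had an unadjusted p under 0.05. Of all 11640 genes tested, glmTreat called 92, and 856 had an unadjusted p under 0.05. Without g1 replicate 1 the count of members fell from 6 to 3, and that of all genes from 580 to 267.

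**Figure D1:**
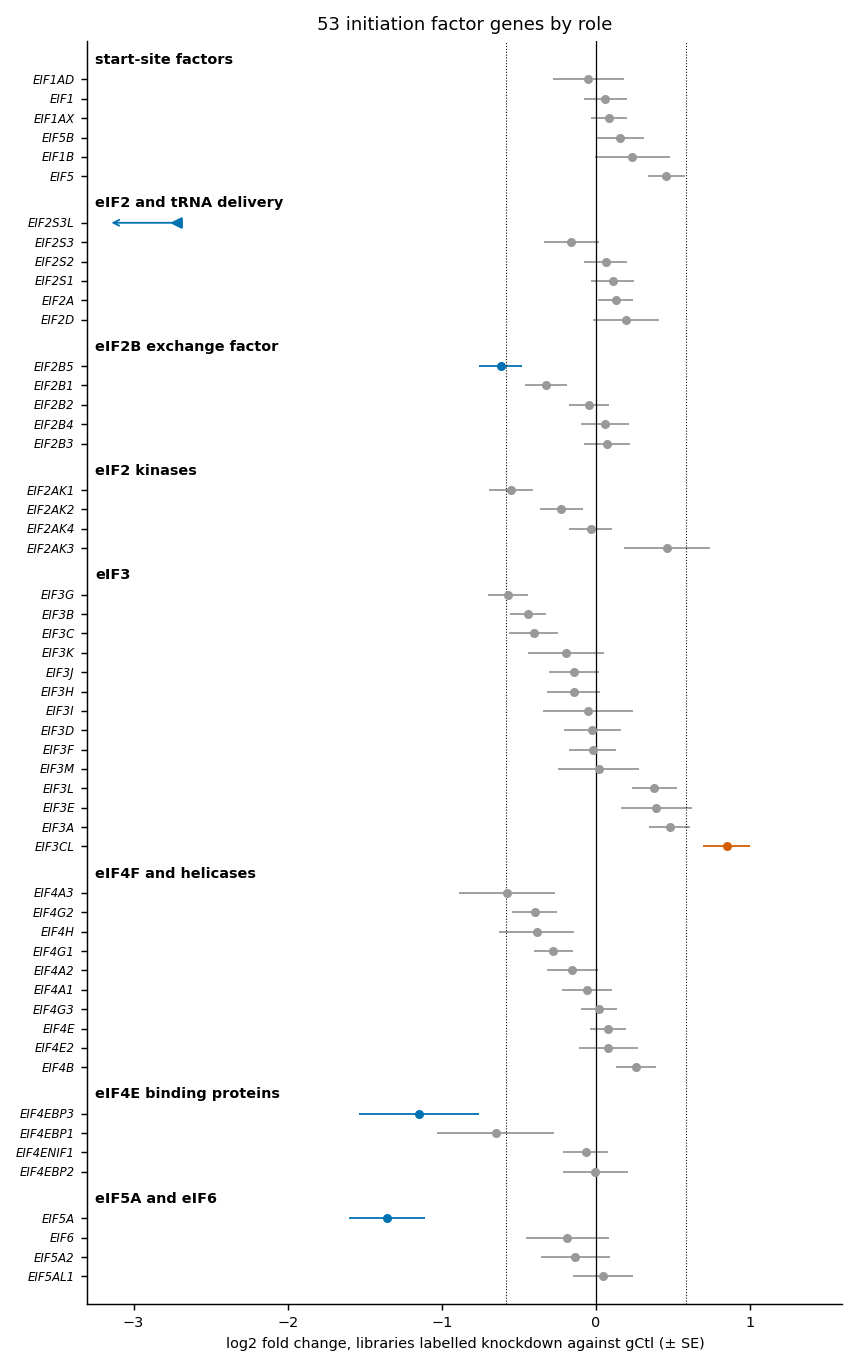
Log2 fold change with its standard error for the 53 tested genes by role, in the 5 libraries labelled knockdown against 5 gCtl libraries. Blue points were called lower, the orange point (EIF3CL) higher, grey points were not called, dotted lines mark 1.5-fold, and the arrow for EIF2S3L starts at its lower bound of 6.58-fold.

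EIF2S3L was found in the gCtl libraries and in no other. Its estimated counts in the 5 gCtl libraries were 11.3, 11.4, 17.7, 14.3 and 22.3, and it had 0 in each of the 3 libraries of g1 and each of the 2 of g2. As RPM this was 3.17 ± 0.661 (SD, n = 5) in gCtl, and with 3 counts per library as the level that a count of 0 allows it was at least 6.58-fold lower in the labelled libraries (6.30-fold for g1 and 7.05-fold for g2), counting error only. The groups did not overlap. EIF2S3L was chosen with earlier results known and passed the RPM minimum through gCtl alone, so its values are given as a description and its call is no independent support.

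EIF2S3, the gamma subunit of eIF2 that binds GTP and the initiator transfer RNA, was counted far more often. It had 111, 117, 83.5, 111 and 82.6 RPM in gCtl, 118, 95.4 and 95.2 RPM with g1, and 67.0 and 52.8 RPM with g2. The g1 libraries lay among or just above the gCtl libraries, while both g2 libraries lay below all others. Over the 5 labelled libraries the mean was 85.6 ± 25.7 RPM against 101 ± 16.7 in gCtl (SD, n = 5 each), and the exact two-sided permutation p was 0.246. With g2 the log2 fold change was -0.59 ± 0.18 (SE), adjusted p = 0.0270 by edgeR's quasi-likelihood test. For g1 it was 0.07 ± 0.15, adjusted p = 0.790. The difference between the guides was -0.66 ± 0.20, and its adjusted p of 0.0644 missed the threshold, while DESeq2 (adjusted p = 0.0310), edgeR scaled by library totals (0.0341), limma on log2(RPM + 1) (0.0285) and edgeR without g2 replicate 1 (0.0378) called it.

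The g2 call of EIF2S3 lay at the edge of the 1.5-fold minimum. It was lost with DESeq2 and with DESeq2 size factors in edgeR (log2 fold change -0.58 in each), and in glmTreat (adjusted p = 0.679). The call was also lost when gCtl replicate 1 (-0.56), gCtl replicate 2 (-0.54), gCtl replicate 4 (-0.56) or g2 replicate 2 (-0.40) was left out.

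Adding EIF2S3L to EIF2S3 changed little, since the copy held 1.84% to 4.55% of the counts of the pair in gCtl. The sum was 114, 119, 86.7, 115 and 86.5 RPM in gCtl and equal to EIF2S3 elsewhere. In the labelled libraries 3 counts, the most that 0 allows, would be 0.361% to 0.776% of the pair, below every gCtl share. The sum was 104 ± 16.3 RPM in gCtl and 85.6 ± 25.7 in the labelled libraries (SD, n = 5 each, exact two-sided permutation p = 0.222). In edgeR's quasi-likelihood test the sum differed by -0.20 ± 0.18 (log2, SE; adjusted p = 0.427) for all labelled libraries, by 0.03 ± 0.15 for g1 and by -0.64 ± 0.18 (adjusted p = 0.0177) for g2.

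Reads of the pair were also spread over transcripts. In EIF2S3 87.8% of all counts fell on the main transcript of 2858 bases, and 11.1% on a processed transcript of 453 bases. In EIF2S3L 87.9% fell on the transcript of 1602 bases. The sum of both genes was a whole number, within 0.01, in 0 of 10 libraries. Kallisto divides a read that matches both genes between them, so a count for EIF2S3L can include reads of EIF2S3, and how much it did here was not tested.

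No other eIF2 gene was called. EIF2S2, the beta subunit and the one with the most counts, had 949 ± 126 CPM in gCtl (SD, n = 5) and 991 ± 133 in the labelled libraries (n = 5), a log2 fold change of 0.06. EIF2S1, the alpha subunit that the stress kinases phosphorylate, and EIF2A and EIF2D, which can deliver transfer RNA without eIF2, were also not called in any of the 4 comparisons. Over all labelled libraries the fitted log2 fold changes of the group without EIF2S3L lay between -0.16 and 0.19.

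In eIF2B, the exchange factor that reloads eIF2, 1 of 5 subunits was called lower over all labelled libraries and with g2. Of all genes tested, 11.0% and 13.0% were. EIF2B5, the catalytic epsilon subunit, had 39.2, 35.8, 39.6, 37.5 and 39.6 CPM in gCtl, 27.2, 25.5 and 27.9 with g1, and 18.3 and 25.9 with g2. Every labelled library lay below every gCtl library. The log2 fold change was -0.62 ± 0.14 (SE), adjusted p = 0.00606 by edgeR's quasi-likelihood test, close to the 1.5-fold minimum. The g2 value was -0.79 ± 0.18 (adjusted p = 0.00491), and the g1 value of -0.51 ± 0.15 (adjusted p = 0.0260) was short of the fold minimum. With protein-coding transcripts alone the g2 value was -1.16 and not called, while the g1 value of -1.47 was called. Without g2 replicate 1 the call over all labelled libraries was lost on the fold alone (-0.54, adjusted p = 0.00665), and so was the g2 call (-0.57). The other 4 subunits, led by EIF2B4 with the most counts (log2 fold change 0.06), were not called in any comparison.

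Of the 4 kinases that phosphorylate eIF2, EIF2AK1 (HRI, the kinase that answers to haem shortage) had the most counts. Its CPM was 265, 246, 210, 238 and 260 in gCtl, 192, 178 and 175 with g1, and 168 and 119 with g2. The labelled libraries lay below all gCtl libraries without overlap, and the log2 fold change of -0.55 ± 0.14 (SE, adjusted p = 0.0119, edgeR quasi-likelihood test) did not reach 1.5-fold. With g2 it was called at -0.76 ± 0.17 (adjusted p = 0.00449), and without g2 replicate 2 the value was -0.53 and the call was lost. EIF2AK2 (PKR), EIF2AK3 (PERK) and EIF2AK4 (GCN2) were not called in any of the 4 comparisons.

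None of the 6 tested start-site factors was called. EIF5, which triggers GTP hydrolysis by eIF2 when the start codon is met, came nearest, with 169 to 201 CPM in gCtl and 227 to 291 in the labelled libraries, which did not overlap (log2 fold change 0.46 ± 0.12, SE, adjusted p = 0.0130 by edgeR quasi-likelihood test). EIF5B, which joins the ribosomal subunits and had the most counts of the group, differed by 0.16, and EIF1AX, which helps the scanning ribosome to reach the start codon, by 0.09.

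eIF3 held 14 of the genes. Of these, EIF3CL was called higher in the labelled libraries, EIF3G was lower and EIF3CL higher with g1, EIF3C and EIF3K were lower and EIF3E higher with g2, and between the guides EIF3K was lower and EIF3E and EIF3M higher with g2. The median log2 fold change of the 14 was -0.04 over all labelled libraries, -0.20 with g1 and 0.15 with g2.

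EIF3CL had 436, 402, 346, 420 and 428 RPM in gCtl, 843, 825 and 766 with g1, and 499 and 531 with g2. All labelled libraries were above all gCtl libraries, and the 3 of g1 above those of g2. The log2 fold change was 0.85 ± 0.15 (SE), adjusted p = 0.00144 by edgeR's quasi-likelihood test. For g1 it was 1.04 ± 0.13 (adjusted p = 0.000107). The g2 value of 0.50 ± 0.14 (adjusted p = 0.0183) was under the fold minimum. The difference between the guides, -0.54 ± 0.16, had an adjusted p of 0.0650.

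EIF3C, identical to EIF3CL over the aligned bases, was called lower with g2. It had 104, 124, 91.5, 81.0 and 121 RPM in gCtl, 76.8, 76.0 and 93.5 with g1, and 67.8 and 56.6 with g2. The g1 libraries overlapped gCtl and the g2 libraries lay below them. With g2 the log2 fold change of -0.59 ± 0.20 (SE) was called (adjusted p = 0.0410, edgeR quasi-likelihood test), and without g2 replicate 2 (-0.44), gCtl replicate 1 (-0.60), gCtl replicate 2 (-0.53) or gCtl replicate 5 (-0.52) it was not.

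The EIF3C counts did not come from the full-length message alone. A retained-intron transcript of 424 bases (ENST00000566086.1) had 111, 310, 206, 158 and 130 estimated counts in gCtl and 0, 0, 4.77, 0 and 0 in the labelled libraries. A coding transcript of 572 bases (ENST00000568426.1) had 106 to 209 in gCtl and 203 to 611 in the labelled libraries. In EIF3CL 98.3% of the counts fell on a single transcript of 3053 bases. With protein-coding transcripts alone the g2 value of EIF3C was -0.12 and not called. With DESeq2, and with DESeq2 size factors in edgeR, that value was -0.58 and under the fold minimum.

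The sum of EIF3C and EIF3CL does not depend on how reads are divided between them, although it was whole within 0.01 in only 2 of 10 libraries. It was 511 ± 44.9 RPM in gCtl (SD, n = 5), 893 ± 30.6 with g1 (n = 3) and 577 ± 14.6 with g2 (n = 2). The sum was called higher for all labelled libraries (log2 fold change 0.67 ± 0.15, SE, adjusted p = 0.00561, edgeR quasi-likelihood test) and for g1 (0.85 ± 0.13, adjusted p = 0.000426). With g2 it was 0.33 ± 0.14 (adjusted p = 0.0990) and not called, although both g2 sums (567 and 588 RPM) lay above the highest gCtl sum (550 RPM). EIF3CL held 76.4% to 91.6% of the counts of the pair, so the sum mostly follows EIF3CL.

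EIF3E, a subunit of the outer part of eIF3, separated the guides. It had 236, 174, 193, 213 and 150 CPM in gCtl, 184, 179 and 171 with g1, and 320 and 413 with g2. Both g2 libraries were above every other library, while those of g1 lay within gCtl. Fitted, EIF3E differed by 0.93 ± 0.17 (log2, SE) with g2 (adjusted p = 0.00146), -0.12 ± 0.16 with g1 and 1.04 ± 0.19 between them (adjusted p = 0.00577, edgeR quasi-likelihood test). No single library left out removed either call.

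EIF3M, a partner of EIF3E in the outer part of the complex, had 180, 124, 133, 173 and 81.1 CPM in gCtl, 87.3, 102 and 108 with g1, and 171 and 231 with g2. The g1 libraries and 1 of the 2 g2 libraries lay within gCtl, the other g2 library lay above it, and g1 and g2 did not overlap. Neither guide was called against gCtl (-0.48 ± 0.21 with g1 and 0.54 ± 0.23 with g2, SE), while the difference of 1.02 ± 0.26 was (adjusted p = 0.0338, edgeR quasi-likelihood test). That call was lost without g1 replicate 1 (0.93), g1 replicate 2 (1.04), g2 replicate 2 (0.80), gCtl replicate 2 (1.02) or gCtl replicate 3 (1.02). In edgeR it was also lost with scaling by library totals (adjusted p = 0.0516) and with protein-coding transcripts alone (0.0512). With limma on log2(RPM + 1) it was lost too (adjusted p = 0.0611).

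EIF3K, a small peripheral subunit, moved in the other direction. Its CPM was 142, 170, 122, 126 and 160 in gCtl, 192, 139 and 145 with g1, and 54.0 and 99.1 with g2. Both g2 libraries were below all the others, although they differed from each other by more than 1.5-fold. With g2 the log2 fold change was -0.91 ± 0.23 (SE, adjusted p = 0.00909) and against g1 -1.05 ± 0.24 (adjusted p = 0.0221, edgeR quasi-likelihood test). Without g2 replicate 1 these were -0.55 and -0.67 and neither was called, and without g1 replicate 1 the second was -0.89 and not called. With protein-coding transcripts alone the second was -1.08 and not called (adjusted p = 0.0593, edgeR quasi-likelihood test).

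EIF3G, an RNA-binding subunit, had 64.5, 64.4, 53.4, 52.9 and 53.5 CPM in gCtl, 38.2, 31.4 and 39.7 with g1, and 44.5 and 40.4 with g2. No labelled library reached the lowest gCtl library. The log2 fold change of -0.57 ± 0.13 (SE, adjusted p = 0.00666, edgeR quasi-likelihood test) was just short of 1.5-fold, and that of g1, -0.66 ± 0.14 (adjusted p = 0.00527), was called. Without g1 replicate 2 the g1 value was -0.57 and not called.

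Among the remaining subunits, EIF3A, the largest scaffold subunit and the eIF3 gene with the most counts, had 748 ± 59.1 CPM in gCtl and 1044 ± 143 in the labelled libraries (SD, n = 5 each), and its log2 fold change was 0.48, under the fold minimum. EIF3B, the other core scaffold subunit, had 114 to 147 CPM in gCtl and 88.0 to 102 in the labelled libraries, without overlap, and a log2 fold change of -0.44 ± 0.12 (SE, adjusted p = 0.0133, edgeR quasi-likelihood test). The other 6, EIF3D, EIF3F, EIF3H, EIF3I, EIF3J and EIF3L, were not called in any comparison.

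**Figure D2:**
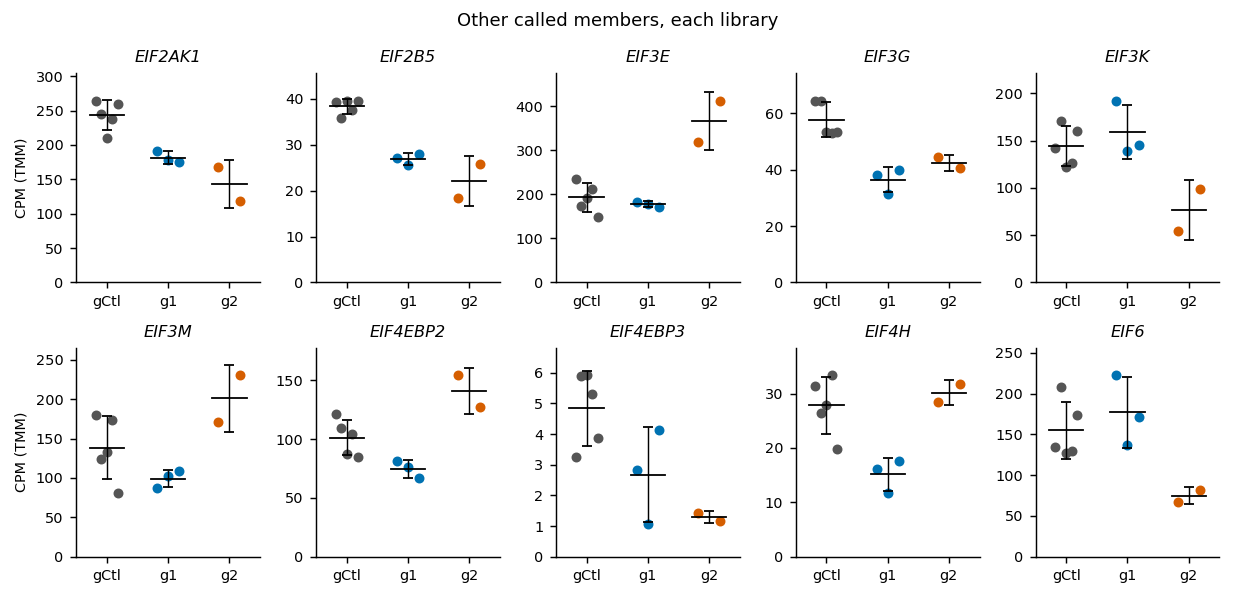
CPM scaled by TMM in each library (points), with the group mean and SD (lines), for the 10 called genes without a near-identical copy among the pairs. Among the genes called between the guides, EIF3E, EIF3M, EIF4EBP2 and EIF4H are higher in both g2 libraries than in the g1 libraries, and EIF3K and EIF6 lower.

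Of the 10 tested genes of eIF4F and its helicases, none was called over all labelled libraries or with g2. With g1, 1 was called lower, where 9.94% of all genes were. The same gene was called higher with g2 than with g1, where 1.56% of all genes were. EIF4H, an RNA-binding protein that stimulates the helicase eIF4A, had 31.5, 26.4, 27.9, 33.5 and 19.9 CPM in gCtl, 16.2, 11.8 and 17.7 with g1, and 28.5 and 31.8 with g2. The g1 libraries lay below all others, and the g2 libraries lay within gCtl. Its log2 fold change was -0.85 ± 0.20 (SE) with g1 (adjusted p = 0.00776) and 0.12 ± 0.22 with g2, and the difference between the guides was 0.98 ± 0.24 (adjusted p = 0.0273, edgeR quasi-likelihood test). The difference was not called without g1 replicate 1 (1.02), g1 replicate 2 (0.83) or g2 replicate 2 (0.91).

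EIF4G1, the scaffold of eIF4F and the member of the group with the most counts, had 493 ± 37.3 CPM in gCtl and 408 ± 48.8 in the labelled libraries (SD, n = 5 each), differed by -0.28 on the log2 scale, and was not called. EIF4A3, a helicase of the exon junction complex, varied between 13.4 and 54.0 CPM within gCtl, and its log2 fold change of -0.94 ± 0.33 (SE) with g1 missed the threshold (adjusted p = 0.0557, edgeR quasi-likelihood test). EIF4G2, which supports initiation without the cap, differed by -0.52 with g1 under the fold minimum. EIF4E, the cap binding protein, differed by 0.08 over all labelled libraries and was not called in any comparison.

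Among the 4 eIF4E binding proteins, EIF4EBP3 was called lower from very few reads. It had 3.25, 5.88, 5.93, 5.29 and 3.87 CPM in gCtl, 2.83, 1.05 and 4.14 with g1, and 1.43 and 1.16 with g2. One g1 library overlapped gCtl and the others lay below. The log2 fold change was -1.15 ± 0.39 (SE, adjusted p = 0.0444, edgeR quasi-likelihood test), and with g2 -1.90 ± 0.53 (adjusted p = 0.0165). Leaving out any of 6 libraries removed the first call: gCtl replicate 2 (-1.07), 3 (-1.07) or 4 (-1.12), g1 replicate 2 (-0.99) and g2 replicate 1 (-1.05) or 2 (-0.99). With protein-coding transcripts alone the first call was lost too (-1.15, adjusted p = 0.0679 by edgeR's quasi-likelihood test). The g2 call was lost without g2 replicate 2 (-1.74). Only 27.38% of its 31-base words occur in no other gene, and the readthrough gene ANKHD1-EIF4EBP3 holds 72.62% of them. In the last 300 bases, near which QuantSeq reads start, 9 of 270 words (3.33%) occur in no other gene.

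EIF4EBP2, the binding protein with the most counts, was not called over all labelled libraries but differed between the guides. It had 121, 109, 87.2, 104 and 85.1 CPM in gCtl, 81.0, 76.1 and 66.6 with g1, and 155 and 127 with g2. The gCtl libraries lay between those of the guides. On the log2 scale EIF4EBP2 differed by -0.44 ± 0.15 (SE) with g1 (adjusted p = 0.0514) and by 0.48 ± 0.17 with g2 (adjusted p = 0.0459, under the fold minimum), and between the guides 0.92 ± 0.18 (adjusted p = 0.00924, edgeR quasi-likelihood test). That last call held with each library left out.

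EIF5A, the hypusine-carrying factor, showed the largest fitted fall after EIF2S3L over all labelled libraries. It had 60.4, 42.4, 35.1, 53.7 and 28.8 RPM in gCtl, 15.1, 13.8 and 11.8 with g1, and 25.8 and 13.4 with g2. No labelled library reached the lowest gCtl library. The log2 fold change was -1.36 ± 0.24 (SE, adjusted p = 0.00155, edgeR quasi-likelihood test), -1.65 ± 0.26 with g1 and -1.0 ± 0.29 with g2, and without g2 replicate 2 the g2 value was -0.57 and not called.

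The counts assigned to EIF5AL1 did not follow those of EIF5A. Of the 31-base words of the main EIF5A transcript, 43.39% occur in no other gene, and 41.85% of those in its last 300 bases. It had 71.2, 58.6, 58.0, 61.8 and 55.4 RPM in gCtl, 54.7, 80.4 and 75.9 with g1, and 53.8 and 31.4 with g2, a log2 fold change of 0.05 ± 0.20 (SE) over all labelled libraries. The groups overlapped. EIF5AL1 held 53.5% to 65.8% of the counts of the pair in gCtl and 67.5% to 86.6% in the labelled libraries.

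The counts of EIF5A and EIF5AL1 added up to a whole number, within 0.01, in 10 of 10 libraries, while EIF5A alone was whole in 1 of 10. Reads that match both genes were thus divided between them, and how far this division set the EIF5A values was not tested. The sum was 105 ± 18.7 RPM in gCtl (SD, n = 5), 83.9 ± 12.6 with g1 (n = 3) and 62.2 ± 24.6 with g2 (n = 2). Fitted as the sum, the log2 fold change was -0.39 ± 0.18 (SE) for all labelled libraries (adjusted p = 0.132), -0.27 ± 0.20 for g1 alone (adjusted p = 0.361) and -0.59 ± 0.23 for g2 (adjusted p = 0.0704), and edgeR's quasi-likelihood test called none of the 3. In the fit the call on EIF5A therefore did not extend to the sum of the pair, although the mean RPM of the sum was lower with each guide. By an exact two-sided permutation test of log2(RPM + 1), without TMM scaling or adjustment, the sum differed by -0.50 in the labelled libraries (p = 0.0397).

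EIF6, which keeps the ribosomal subunits apart, had 135, 208, 128, 130 and 174 CPM in gCtl, 223, 137 and 171 with g1, and 67.4 and 82.4 with g2. Both g2 libraries were below every other library, and the g1 libraries lay among or just above gCtl. EIF6 differed by -1.05 ± 0.23 (log2, SE) with g2 (adjusted p = 0.00453), 0.19 ± 0.19 with g1 and -1.24 ± 0.25 between them (adjusted p = 0.00924, edgeR quasi-likelihood test). Both calls held with each library left out.

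**Figure D3:**
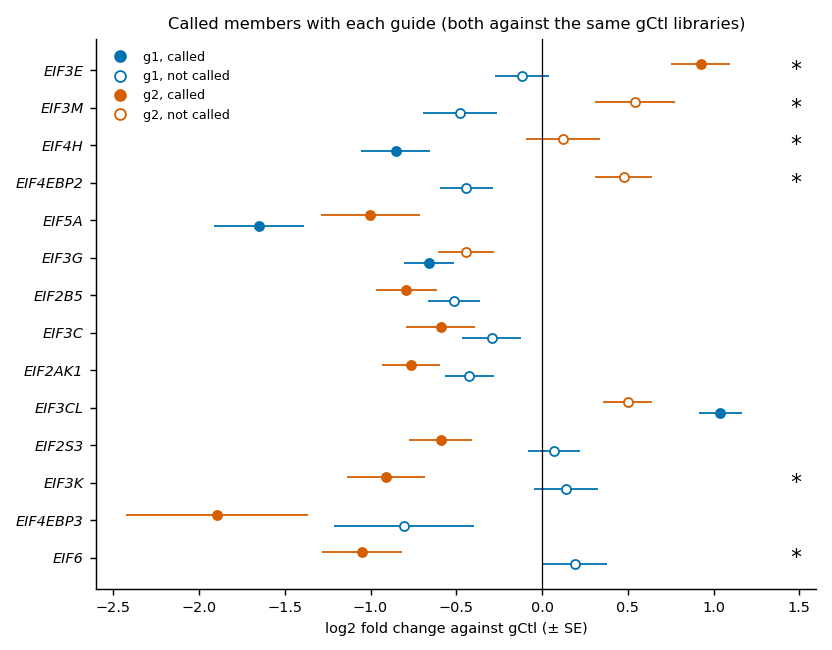
Log2 fold change against gCtl with its standard error for g1 (blue) and g2 (orange) in the 14 called genes other than EIF2S3L, filled where called. Stars mark the 6 genes called between the guides, and both guides share the same gCtl libraries.

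Genes that work beside the initiation factors were counted as lists. Of 13 poly(A) binding and initiation helper genes, 3 were called higher in the labelled libraries and none lower. These were PAIP2B, an inhibitor of the poly(A) binding protein (log2 fold change 0.97), PDCD4, an inhibitor of the helicase eIF4A (0.97), and MCTS1, a partner of DENR in recycling and reinitiation (0.62). All were also called with each guide, and with g2 ABCE1, the ribosome recycling factor (0.69), and PAIP1 (0.67) joined them. The median of the list was 0.15. Of the 13, 3 were thus called higher over the labelled libraries, 3 with g1 and 5 with g2. Of all genes tested, 8.14%, 6.81% and 10.7% were, in that order.

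PDCD4 had 26.2 to 36.7 RPM in gCtl and 31.8 to 64.6 in the labelled libraries, overlapping in a single g1 library. PAIP2B had 16.9 to 35.4 RPM in gCtl and 33.1 to 63.1 in the labelled libraries. MCTS1 had 41.3 to 60.2 RPM in gCtl and 58.8 to 88.9 in the labelled libraries, and its ranges, like those of PAIP2B, overlapped at their edges.

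Of 9 tested elongation and release factors, EEF2, the translocation factor, was called lower in the labelled libraries (-0.64) and with each guide, and none was higher there. A single call among 9 is close to the 11.0% of all genes called lower. It had 332 to 542 RPM in gCtl and 214 to 334 in the labelled libraries, which overlapped at the edge. GSPT1, a release factor, was called higher with g1 (0.59), and EEF1B2 lower with g2 (-0.67). Of all genes tested, 9.94% were called lower and 6.81% higher with g1, and 13.0% lower with g2. Of 12 kinases, phosphatases and regulators upstream of eIF4F and eIF2, RPS6KB2, an S6 kinase, was called higher in the labelled libraries (0.99) from 3.45 to 4.89 RPM in gCtl and 5.95 to 9.55 in the others, without overlap. A single call among 12 stands beside the 8.14% of all genes called higher. RHEB, the GTPase that activates mTOR, was called lower with g1 (-0.67), while MTOR, RPTOR and both eIF2 phosphatase subunits PPP1R15A and PPP1R15B were not called in any comparison.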

How the data were processed

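RNA was measured in 10 QuantSeq libraries, whose reads start near the 3′ end of a message. Estimated counts per transcript from Kallisto (version 42.5 in the submitters' processing notes) are what the authors deposited, without normalization. Here they were summed per gene, and RPM was computed from the library's total estimated count. Groups came from the labels. The gene sums of protein-coding genes above 3 RPM in at least 20% of libraries were rounded and then tested with edgeR 4.0.16 under R 4.3.3 (quasi-likelihood test, TMM, Benjamini-Hochberg), the 5 libraries labelled knockdown against 5 gCtl, and in a second fit of 3 groups each guide against gCtl and g2 against g1. The standard error is the size of the log2 fold change over the square root of F. RPM of EIF2S3, of its sum with EIF2S3L and of the sum of EIF5A and EIF5AL1 was compared by exact two-sided permutation tests (scipy 1.17.1). Totals of 3838803 to 8730468 counts set the precision of low genes, and a floor of 3 counts covers counting error only. Nothing in the labels says that libraries came from separate cultures, so p-values measure the spread between these samples, which may be technical; no pair of libraries of a group agreed within sampling noise (chi-square over degrees of freedom at least 4.28). Transcript sequences and positions came from GENCODE v29, in which most of the transcript versions of these genes recur. All members were counted, and values in every library are given for EIF2S3, EIF2S3L and members called in at least 1 of 4 comparisons, and for others the one with the most counts in each role, near-identical copies and those near a threshold. Some genes were also named to complete a group. The members and lists were chosen with earlier results of these data known. The programs were tested on simulated data. Alternatives were DESeq2 1.42.0, its size factors used in edgeR, scaling by totals, limma 3.58.1 on log2(RPM + 1), glmTreat, other filters, copies added together and each library left out.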

Additional observations from a re-analysis of the deposited data

Results flagged for a closer look

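Between the guides 6 members differed in a direct test of that difference (edgeR's quasi-likelihood test, adjusted p at most 0.05, fold at least 1.5). The log2 differences, g2 over g1, were 1.04 for EIF3E, 1.02 for EIF3M, 0.98 for EIF4H, 0.92 for EIF4EBP2, -1.05 for EIF3K and -1.24 for EIF6. The group of g2 holds 2 libraries and that of g1 3, so an effect of the guide and of these libraries cannot be told apart. In the gCtl libraries no called member had a library far enough from the other 4 to be singled out.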

How the results depend on the processing

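No paired analysis was possible because the labels carry no replicate numbers. The replicate numbers used here only count the samples of each group in the order listed. Over the labelled libraries 5 members were called, against a total of 2 in glmTreat, 3 with copies added together and 10 with no fold minimum, not all of them among the 5. Of all 11640 genes tested, 2232 were called in the main fit, 488 in glmTreat and 2752 with no fold minimum. With copies added together 2230 of 11637 were. For g1 (5) the totals were 3, 3 and 11, and 8 with protein-coding transcripts alone. In the same order, 1950 of all genes were called with g1 in the main fit, then 506, 1948 and 2335. With protein-coding transcripts alone 1532 of 10268 genes were. For g2 (10) glmTreat called 1, and for g2 against g1 (6) it called 0, with 6 at an unadjusted p under 0.05 and 8 by DESeq2. Of all genes, the main fit called 2757 with g2 and glmTreat 802. Between the guides the main fit called 580 of all genes, glmTreat 92 and DESeq2 841. Leaving out 1 library gave 4 to 7, 4 to 7, 5 to 13 and 3 to 8 calls in the order labelled libraries, g1, g2, g2 against g1, with the lowest g2 count without g2 replicate 2 and the lowest count between guides without g1 replicate 1. Over all genes these ranges were 1703 to 2424, 1249 to 2260, 1497 to 3111 and 267 to 857. The lowest counts with g2 and between guides came from the same left-out libraries. With g2 the log2 fold change was -0.59 for EIF3C and 0.33 for EIF3C and EIF3CL summed, a sum that EIF3CL dominates. Scaled by library totals alone, 69.4% of the calls over all genes were lower in the labelled libraries (57.5% with TMM), 73.3% with g2 (54.9%) and 83.4% between guides (68.6%), and the median over all genes moved to -0.16 with g2. The exact permutation tests of EIF2S3 and of its sum with EIF2S3L kept their direction and stayed above 0.05 with log2(RPM + 0.1), with TMM-scaled values and with each library left out. Depth limits EIF2S3L and EIF4EBP3, and the cause of the differences between settings was not tested beyond the division of copies.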
